A study of Homo sapiens with 4 samples.

Results

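The 10 genes examined belong to the response to unfolded proteins in the endoplasmic reticulum (ER), and their RNA was measured in anaplastic thyroid carcinoma cells given the PARP inhibitor niraparib. They were HSPA5, HSP90B1, DNAJB9, HERPUD1, XBP1, ATF6, CALR, PDIA4, SDF2L1 and EDEM1, and they were taken by name as ER chaperones and as targets or members of the ATF6 and IRE1-XBP1 branches of that response. All 10 were found in the table of 16717 genes. The RNA came from Cal-62, a human anaplastic thyroid cancer cell line, in 2 groups of 2 libraries: cells treated with the solvent DMSO and cells treated with niraparib, which inhibits PARP1 and PARP2. Nothing else separates the groups in the labels, both groups are the same line, and the concentration and duration of treatment for these libraries are not given in the sources used here. Cal-62 is 1 line grown without the other cells of a tumour.

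Levels are in TPM, in which transcripts are scaled by length and expressed as a share of a fixed total in each library. The libraries summed to between 994264 and 995353 TPM, and 12853 to 13336 genes reached 1 TPM in each. TPM keeps no sequencing depth, so the precision of every value rests on the spread between the libraries of a group. Of the thyroid follicular cell markers, the transcription factor PAX8 stood at 189 to 207 TPM and FOXE1 at 1.95 to 4.61 TPM. The 5 epithelial markers summed to 2710 to 2740 TPM with DMSO and 3020 to 3070 TPM with niraparib, with the adhesion protein CDH1 at no more than 0.28 TPM. Of 6 fibroblast markers, 3 were measured; they summed to 68.6 and 71.9 TPM with DMSO and to 155 and 148 TPM with niraparib, most of it COL1A1. Of 6 leukocyte markers, 3 were measured, at 22.7 to 23.1 and 36.2 to 40.8 TPM, and of 4 endothelial markers, 2 were measured, at no more than 0.6 TPM. Their part in the results was not tested.

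The unfolded protein response adjusts the folding capacity of the ER to its load. HSPA5, also called BiP, is the Hsp70 chaperone of the ER lumen and holds the 3 sensors IRE1 (gene ERN1), ATF6 and PERK (gene EIF2AK3) inactive until unfolded proteins draw it away. IRE1 splices the mRNA of XBP1 into the form that encodes an active transcription factor, ATF6 is cut by the Golgi proteases MBTPS1 and MBTPS2 into another, and PERK phosphorylates the initiation factor subunit EIF2S1, which slows translation and favours ATF4 and its target DDIT3. Kinases other than PERK also act on EIF2S1 and feed the same ATF4 arm. Gene-level TPM shows neither the splicing of XBP1, nor the cleavage of ATF6, nor phosphorylation. Secretory thyroid cells depend on this system for thyroglobulin, the large glycoprotein from which thyroid hormone is made.

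ATF6 and XBP1 act through short DNA elements near the start sites of their targets. Of the 10 genes, 6 held such an element, not the same one in each, and their promoters are shown. Targets of these factors were among the genes taken by name, so the presence of the elements is not a separate finding. The search covered both strands of windows of 300 bases, from 250 before to 50 after each start site, from RefSeq on GRCh38.p14; all 10 genes had a window, and PDIA4 and XBP1 had 2. The ER stress response element, ERSE, was searched as CCAAT, any 9 bases and CCACG, and ERSE-II as ATTGG, any base and CCACG; ERSE contains the letters CCAAT, and ERSE-II contains their reverse complement. Each sequence runs 5′ to 3′ on the strand of the gene, and the capitals mark the fixed letters of the element, which read CGTGG and ATTGG, or CGTGG and CCAAT, where it lies on the other strand. XBP1 is from chr22:28800570-28800679 (minus strand), HSP90B1 from chr12:103930210-103930349 (plus), HSPA5 from chr9:125241344-125241453 (minus), CALR from chr19:12938374-12938413 (plus), HERPUD1 from chr16:56932012-56932081 (plus) and SDF2L1 from chr22:21642102-21642151 (plus). The first 4 hold ERSE and the last 2 hold ERSE-II.
XBP1: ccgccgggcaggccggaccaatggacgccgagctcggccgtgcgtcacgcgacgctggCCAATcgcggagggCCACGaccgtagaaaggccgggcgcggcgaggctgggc
HSP90B1: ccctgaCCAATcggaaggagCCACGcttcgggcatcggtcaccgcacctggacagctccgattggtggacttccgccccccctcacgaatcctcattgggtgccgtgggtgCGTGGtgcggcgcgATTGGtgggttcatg
HSPA5: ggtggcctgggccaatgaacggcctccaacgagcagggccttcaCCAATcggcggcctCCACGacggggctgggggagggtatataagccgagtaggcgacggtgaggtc
CALR: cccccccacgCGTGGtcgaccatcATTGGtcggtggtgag
HERPUD1: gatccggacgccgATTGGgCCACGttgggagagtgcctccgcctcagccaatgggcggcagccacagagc
SDF2L1: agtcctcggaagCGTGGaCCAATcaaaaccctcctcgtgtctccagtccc

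The element of XBP1 lay 52 to 34 bases before 1 of its start sites, and the window of its other start site held no ERSE. The element of HSPA5 lay 66 to 48 bases before its start site. HSP90B1 held 2 copies, at 194 to 176 bases on the strand of the gene and at 89 to 71 bases on the other strand. ERSE was present in 27 of 35116 RefSeq windows (0.0769%) and ERSE-II in 19 (0.0541%). With any 1 base of CCACG left free, ERSE matched 6 of the 10 genes and 1.05% of all windows. The unfolded protein response element, UPRE, searched as TGACG followed directly by TGG, matched none of the 10 genes and 0.729% of all windows. DNAJB9, ATF6, PDIA4 and EDEM1 had no exact ERSE or ERSE-II in these windows, which says only that these letters are not there.

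Of the 10 genes, XBP1 rose with niraparib, HSP90B1 fell, and 8 did not pass the test. The test was limma on log2(TPM + 1), two-sided, with p-values adjusted over the 13377 genes that reached 1 TPM in at least 2 libraries and a threshold of 0.05. Across all of these genes 32.4% passed, 20.8% higher (2780 genes) and 11.7% lower (1559 genes), against 20.0% of the 10. How the share of the 10 compared with that background depended on the processing. After median-of-ratios scaling 1 of the 10 was higher and 4 lower, beside 1998 higher and 2233 lower of all genes. After GC adjustment 2 were higher and 5 lower, beside 1338 higher and 2129 lower of the genes with a matched GC content. The total of those genes may be below 13377, and shares of it were not computed. The niraparib libraries did not overlap the DMSO libraries in 8 of the 10 genes, above in 3 and below in 5, against 70.9% of all genes tested, 41.9% above and 29.0% below. At an unadjusted limma p under 0.05 there were 5 of the 10. The share of all genes at that threshold was not counted. Without that background, this number does not set the 10 apart from other genes. The median log2 fold change of the 10 was -0.10, and that of all genes tested was 0.07. In RNA from a whole culture, fewer cells with a transcript and less of it per cell cannot be told apart.

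**Figure D1:**
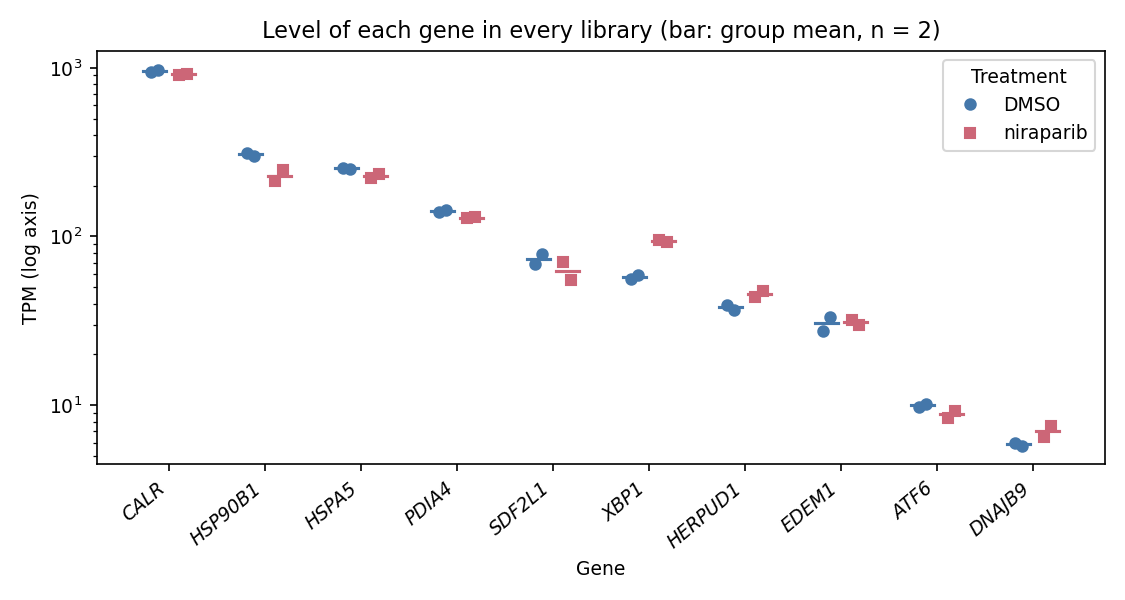
TPM (log axis) of the 10 genes in each of the 4 libraries, with DMSO and niraparib libraries side by side and a bar at each group mean (n = 2). XBP1 moved from 57.8 to 94.0 TPM and HSP90B1 from 306.8 to 229.8 TPM, while CALR, the most abundant, stood at 912 to 976 TPM.

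Of the response factors, XBP1 rose and ATF6 did not pass. XBP1 (GRCh37 chr22:29190543-29196585, minus strand), the transcription factor made active by IRE1, read 56.2 and 59.3 TPM with DMSO and 94.9 and 93.2 TPM with niraparib. Both niraparib libraries stood far above both DMSO libraries. The means were 57.8 ± 2.25 and 94.0 ± 1.17 TPM (SD, n = 2), a ratio of 1.63 and a log2 fold change of 0.69 (SE 0.0579, 95% interval 0.55 to 0.84, limma adjusted p = 0.00285). The call held under all 15 alternative settings, with log2 fold changes between 0.59 and 0.88.

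ATF6 (chr1:161736088-161947364, plus), the membrane-bound sensor that becomes a transcription factor when cut, read 9.74 and 10.2 TPM with DMSO and 8.44 and 9.25 TPM with niraparib. The niraparib libraries were the lower ones, by a small margin. The log2 fold change was -0.16 (SE 0.111, 95% interval -0.44 to 0.12, limma adjusted p = 0.318), so a decrease of up to 0.44 and an increase of up to 0.12 both remained within the interval. It turned to 0.04 after a GC adjustment that kept the library levels. Its paralog ATF6B read 77.8 and 72.0 TPM with DMSO and 107 and 90.7 TPM with niraparib. It rose by 0.39 on the log2 scale (limma adjusted p = 0.0305), a call that ended in 9 of 15 alternatives, among them the removal of DMSO replicate 1 (adjusted p = 0.0658), DMSO replicate 2 (0.113) or niraparib replicate 1 (0.0912). The log2 ratio of ATF6 to ATF6B within a library was -3.00 and -2.82 with DMSO and -3.66 and -3.29 with niraparib.

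Among the sensors, ERN1, which encodes IRE1, was scarce and read 0.89 and 0.82 TPM with DMSO against 2.95 and 2.37 TPM with niraparib. Both niraparib values were above both DMSO values. The log2 fold change of TPM + 1 was 0.98 (SE 0.183, 95% interval 0.51 to 1.44, limma adjusted p = 0.016), and the ratio of means was 3.11. ERN1 was below 1 TPM in both DMSO libraries. It met the filter of 1 TPM in at least 2 libraries only through the niraparib libraries, so its call leans on the group in which it was higher. With at least 1 TPM required in every library, ERN1 was not tested. It no longer passed when DMSO replicate 1 (limma adjusted p = 0.0601), DMSO replicate 2 (0.0635) or niraparib replicate 1 (0.0822) was left out. EIF2AK3, which encodes PERK, read 5.07 and 6.66 TPM with DMSO and 4.74 and 4.87 TPM with niraparib and did not pass (log2 fold change -0.23, limma adjusted p = 0.316).

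Of the lumenal chaperones, HSP90B1 fell and HSPA5, CALR, PDIA4 and SDF2L1 did not pass. HSP90B1 (chr12:104323885-104347709, plus), the ER form of Hsp90 also called GRP94, read 314 and 300.0 TPM with DMSO and 213 and 247 TPM with niraparib. Both niraparib libraries were below both DMSO libraries, and they differed from each other by more than the DMSO libraries did. The means were 306.8 ± 9.55 and 229.8 ± 24.4 TPM (SD, n = 2), a ratio of 0.749 and a log2 fold change of -0.42 (SE 0.078, 95% interval -0.62 to -0.22, limma adjusted p = 0.0156). Leaving out DMSO replicate 1 ended the call (limma adjusted p = 0.0693), as did fitting without limma's trend and robust priors (0.0614) and the GC adjustment that kept library levels (log2 fold change -0.17, adjusted p = 0.0942), though the value stayed negative in each. Exons of HSP90B1 share 805 bases with the opposite-strand gene UQCC6, listed as C12orf73 at 7.0 to 11.2 TPM. They share 105 bases with the opposite-strand pseudogene TTC41P, at no more than 0.49 TPM. Exons of EDEM1 and CALR share 631 and 270 bases with opposite-strand long noncoding RNA genes. Whether reads were counted by strand is not given in the sources used here.

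HSPA5 (chr9:127997132-128003661, minus) read 254 and 253 TPM with DMSO and 221.9 and 235.5 TPM with niraparib. Both niraparib libraries were below both DMSO libraries. The means were 253.3 ± 1.05 and 228.7 ± 9.63 TPM (SD, n = 2), a ratio of 0.903. The log2 fold change was -0.15 (SE 0.0458, 95% interval -0.26 to -0.03), with an unadjusted p of 0.0215 and a limma adjusted p of 0.0609, which did not pass. It passed after median-of-ratios scaling (-0.25, adjusted p = 0.0166), upper-quartile scaling (-0.22, 0.0207) and GC adjustment (-0.14, 0.0441). In no alternative was HSPA5 higher with niraparib, and its log2 fold change ran from -0.25 to -0.04.

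CALR (chr19:13049392-13055303, plus), calreticulin, the calcium-binding lectin chaperone of glycoproteins, read 948 and 976 TPM with DMSO and 912 and 921 TPM with niraparib. The niraparib libraries were the lower pair, with a ratio of means of 0.953 (log2 fold change -0.07, 95% interval -0.15 to 0.01, limma adjusted p = 0.137). PDIA4 (chr7:148700154-148725754, minus), a disulfide isomerase also called ERp72, read 140 and 143 TPM with DMSO and 129 and 130.3 TPM with niraparib. The ordering was the same as for CALR, and the log2 fold change was -0.13 (95% interval -0.24 to -0.01, limma adjusted p = 0.0838). Both passed after median-of-ratios scaling (CALR -0.17, limma adjusted p = 0.0132; PDIA4 -0.23, 0.0184), after upper-quartile scaling (0.021 and 0.0252) and after GC adjustment (CALR -0.31, 0.00324; PDIA4 -0.36, 0.00494).

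SDF2L1 (chr22:21996591-21998588, plus), a small co-factor that works with ER chaperones of the Hsp40 family, read 69.0 and 79.1 TPM with DMSO and 70.4 and 55.3 TPM with niraparib. The groups overlapped, since niraparib replicate 1 lay between the DMSO libraries. The log2 fold change was -0.24 (95% interval -0.57 to 0.09, limma adjusted p = 0.216). The GC content of its transcript, 65.1%, was the highest of the 10, and after GC adjustment the value was -0.65 (adjusted p = 0.013). Over the 10 genes GC content ran from 37.3% (DNAJB9) to 65.1%, and its part in these values was not tested beyond those adjustments.

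The 3 genes that act in ER-associated degradation or as its co-chaperones, HERPUD1, DNAJB9 and EDEM1, did not pass. HERPUD1 (chr16:56966054-56978776, plus), a membrane protein of the degradation complex, read 39.4 and 36.8 TPM with DMSO and 43.7 and 47.7 TPM with niraparib. Both niraparib libraries were the higher, with means of 38.1 ± 1.81 and 45.7 ± 2.84 TPM (SD, n = 2). The log2 fold change was 0.26 (95% interval 0.06 to 0.46, unadjusted p = 0.0206, limma adjusted p = 0.0591) and did not pass, although it did after the GC adjustment that kept library levels (0.27, 0.0479).

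DNAJB9 (chr7:108210311-108215294, plus), also called ERdj4, an Hsp40 co-chaperone that brings HSPA5 to IRE1 and to misfolded clients, was the least abundant of the 10 at 5.98 and 5.76 TPM with DMSO and 6.48 and 7.52 TPM with niraparib. The groups did not overlap. Its log2 fold change was 0.22 (95% interval -0.12 to 0.55, limma adjusted p = 0.257), and it passed after GC adjustment (0.45, adjusted p = 0.0407). EDEM1 (chr3:5229331-5261643, plus), which directs glycoproteins that fail to fold to degradation, read 27.6 and 33.4 TPM with DMSO and 31.9 and 30.1 TPM with niraparib. Both niraparib libraries lay between the DMSO libraries, with a log2 fold change of 0.03 (95% interval -0.25 to 0.31, limma adjusted p = 0.873) whose sign turned in 6 of 15 alternatives.

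**Figure D2:**
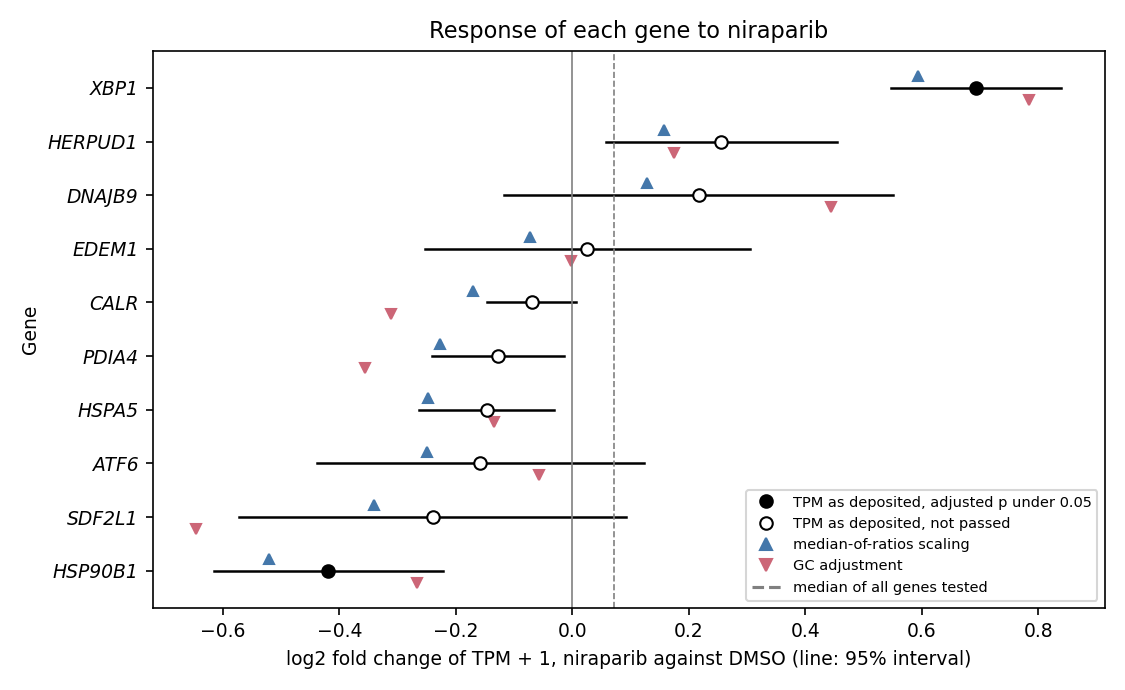
Log2 fold change of TPM + 1 (niraparib against DMSO) of each of the 10 genes with its 95% interval; filled circles passed limma at an adjusted p of 0.05, triangles give the values after median-of-ratios scaling and after GC adjustment, and the dashed line is the median of all genes tested (0.07). XBP1 at 0.69 and HSP90B1 at -0.42 passed; after GC adjustment CALR moved to -0.31 and SDF2L1 to -0.65.

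The order of levels hardly changed with treatment. With DMSO it ran CALR, HSP90B1, HSPA5, PDIA4, SDF2L1, XBP1, HERPUD1, EDEM1, ATF6 and DNAJB9, and no neighbours overlapped. With niraparib XBP1 stood above SDF2L1, and HSP90B1 and HSPA5 overlapped. The 10 genes summed to 1864 and 1896 TPM with DMSO and 1731 and 1777 TPM with niraparib, or 0.187% and 0.19% against 0.174% and 0.179% of the library. Calreticulin made up about as much as the other 9 together, and without it the sums were 915 and 920.2 TPM against 819 and 856 TPM. The niraparib libraries were the lower ones in both sums.

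The other ER genes, in lists that hold none of the 10, were split in direction. The counts of each list stand beside 20.8% called higher and 11.7% called lower of all genes tested. Of 35 ER chaperones and folding enzymes, 5 rose, 7 fell and 23 did not pass, with a median log2 fold change of -0.03. QSOX1, which oxidises thiols to disulfides late in the secretory pathway, rose from 149 and 155 TPM to 240 and 245 TPM (log2 fold change 0.67, limma adjusted p = 0.00201), and FKBP10, a prolyl isomerase for collagen, from 98.3 and 98.4 TPM to 149 and 143 TPM (0.56, 0.00289). FKBP11, a related prolyl isomerase, fell from 43.7 and 44.5 TPM to 30.9 and 28.1 TPM (-0.57, 0.0073). These calls held in all 15 alternatives. P4HB, the disulfide isomerase PDI, rose by 0.25 (limma adjusted p = 0.00709), but stood at -0.05 after GC adjustment, and the HSPA5 co-chaperone DNAJB11 fell by 0.24 (0.0307), a call lost when any 1 of the 4 libraries was left out (adjusted p 0.0628 to 0.15). CANX and PDIA3, the membrane lectin and the oxidoreductase that work with CALR, did not pass (log2 fold changes -0.08 and 0.07).

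Of 32 genes of ER-associated degradation, 6 rose, 2 fell and 24 did not pass (median 0.08). SYVN1, the ubiquitin ligase also called HRD1, read 21.7 and 21.9 TPM with DMSO and 31.9 and 29.2 TPM with niraparib (log2 fold change 0.47, limma adjusted p = 0.0136), and did not pass when DMSO replicate 1 (0.063), DMSO replicate 2 (0.0564) or niraparib replicate 1 (0.0589) was removed, nor after GC adjustment (log2 fold change 0.17, 0.133). MAN1B1, a mannosidase that marks misfolded glycoproteins, rose by 0.48 (0.0101) but did not pass after GC adjustment (0.145). UBXN4, which recruits the segregase VCP to the ER membrane, fell by 0.49 (0.00799; 0.0648 after the GC adjustment that kept library levels), and VCP itself fell by 0.20 (0.0155), a call lost without DMSO replicate 1 (0.0842), DMSO replicate 2 (0.0669) or niraparib replicate 1 (0.062). EDEM3 and HERPUD2, paralogs of 2 of the 10 genes, did not pass (-0.33 and 0.02).

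Of 25 genes of translocation into the ER, 1 rose, 6 fell and 18 did not pass, and the median of -0.16 was below that of all genes tested. SRP72, of the signal recognition particle, fell by 0.44 (limma adjusted p = 0.00933), and the translocon-associated subunits SSR3 and SSR1 fell by 0.42 (0.00938) and 0.41 (0.0151), while the subunit SSR4 rose by 0.27 (0.00809). These 4 calls depended on processing: the number lower was 10 after median-of-ratios scaling, 0 after the GC adjustment that kept library levels and 2 without DMSO replicate 1 or without niraparib replicate 1, and SSR4 turned to -0.08 after GC adjustment. Leaving out 1 library ended the call of SRP72 (without DMSO replicate 2, 0.052), of SSR3 (without niraparib replicate 1, 0.0572) and of SSR1 (without DMSO replicate 1, 0.0779, or either niraparib library, 0.0552 and 0.0595).

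Of 19 N-glycosylation genes, 2 rose, 1 fell and 16 did not pass (median -0.002). Both that rose encode glucosidase II, which trims the glycans that calreticulin reads: the subunit PRKCSH went from 329 and 336 TPM to 482 and 474 TPM (log2 fold change 0.52, limma adjusted p = 0.00201, held in all 15 alternatives), and GANAB from 244 and 253 TPM to 313 and 321 TPM (0.35, 0.0053, and 0.0917 after GC adjustment). STT3B, a catalytic subunit of the oligosaccharyltransferase, fell by 0.46 (0.0142) and lost its call without DMSO replicate 1 (0.0703), DMSO replicate 2 (0.0587) or niraparib replicate 1 (0.0562). The glucosidase I gene MOGS stood just outside the threshold (0.29, 0.0502).

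Of 13 measured genes for KDEL receptors and ER calcium, 4 rose, 1 fell and 8 did not pass (median 0.08). The KDEL receptors return lumenal chaperones such as HSPA5 and CALR from the Golgi. KDELR3 rose from 38.3 and 37.2 TPM to 50.3 and 56.8 TPM (log2 fold change 0.49, limma adjusted p = 0.0118; 0.0506 without DMSO replicate 2) and KDELR1 by 0.31 (0.00632; 0.366 after GC adjustment). STIM1, the ER calcium sensor, rose from 31.1 and 30.0 TPM to 50.3 and 47.4 TPM (0.66, 0.00437, held in all 15 alternatives), and the calcium release channel ITPR3 by 0.48 (0.00487), which did not pass after GC adjustment. In these 5 lists together 18 of 124 genes rose and 17 fell, 14.5% and 13.7% against 20.8% and 11.7% of all genes tested, with a median log2 fold change of -0.004. The 5 list medians ran from -0.16 to 0.08, beside 0.07 over all genes tested.

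Of 16 tested sensors and regulators, 5 rose, 1 fell and 10 did not pass. That was 31.2% higher and 6.25% lower, against 20.8% and 11.7% of all genes tested. ERN1, among the 5, met the filter only through its niraparib libraries. The list median of 0.08 was close to the 0.07 over all genes tested. Beside ERN1 and ATF6B, the calls were CREB3, an ER-bound transcription factor processed like ATF6 (0.32, limma adjusted p = 0.00939; 0.625 after GC adjustment), and WFS1, which restrains ATF6 (0.47, 0.0489), and NFYC (0.27, 0.0462). The last 2 were lost in 12 of 15 alternatives each. NFYA, NFYB and NFYC form NF-Y, the factor that binds the CCAAT letters of ERSE. NFYA read 31.4 and 34.4 TPM with DMSO and 23.7 and 24.9 TPM with niraparib (-0.42, limma adjusted p = 0.0188), a call lost without DMSO replicate 2 (0.0953), niraparib replicate 1 (0.0795) or niraparib replicate 2 (0.0518). NFYB was lower in both niraparib libraries and did not pass (-0.51, limma adjusted p = 0.0786). The Golgi proteases MBTPS1 (0.18) and MBTPS2 (0.02), the XBP1 ligase genes RTCB (-0.12) and ZBTB8OS (-0.19), and TRAF2, CREB3L2, YY1 and TMBIM6 (0.28, 0.08, 0.001 and 0.08) did not pass either.

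Most genes of the PERK and ATF4 arm, a list chosen with earlier results of these data known, were higher with niraparib. In this arm 72.7% of genes were called higher and 9.09% lower, against 20.8% and 11.7% of all genes tested. Of its 11 genes 8 rose, 1 fell and 2 did not pass, with a median log2 fold change of 1.38 against 0.07 over all genes tested, and the count of 8 higher was the same in all 15 alternatives. DDIT3, the transcription factor CHOP, rose from 14.0 and 9.43 TPM to 59.2 and 61.4 TPM (log2 fold change 2.30, 95% interval 1.85 to 2.74, limma adjusted p = 0.00259). TRIB3, a pseudokinase induced by ATF4 and CHOP, rose from 23.0 and 24.0 TPM to 100.1 and 99.99 TPM (2.04, 0.000841). PPP1R15A, also called GADD34, which reverses the phosphorylation of EIF2S1, rose from 87.9 and 87.1 TPM to 231 and 222 TPM (1.36, 0.000844). The niraparib libraries lay far above the DMSO libraries in each.

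The other 5 that rose were SESN2 (1.98), ATF3 (1.82), CHAC1 (1.44), CEBPB (1.38) and ASNS (1.35), which encode a stress-induced inhibitor of mTORC1 signalling, a transcription factor, a glutathione-degrading enzyme, a transcription factor and asparagine synthetase. ATF4 itself read 205 and 255 TPM with DMSO and 200.2 and 227 TPM with niraparib, overlapping groups that did not pass (log2 fold change -0.10, limma adjusted p = 0.551); after GC adjustment its value was -0.40 (0.063), and with the replicate block as well it passed (0.00694). EIF2S1 fell from 267 and 267 TPM to 175 and 205 TPM (-0.49, limma adjusted p = 0.0108; 0.0648 after the GC adjustment that kept library levels). PPP1R15B, the constitutive partner of the same phosphatase, did not pass (-0.05). ATF4 is controlled largely through translation, which these libraries do not measure.

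**Figure D3:**
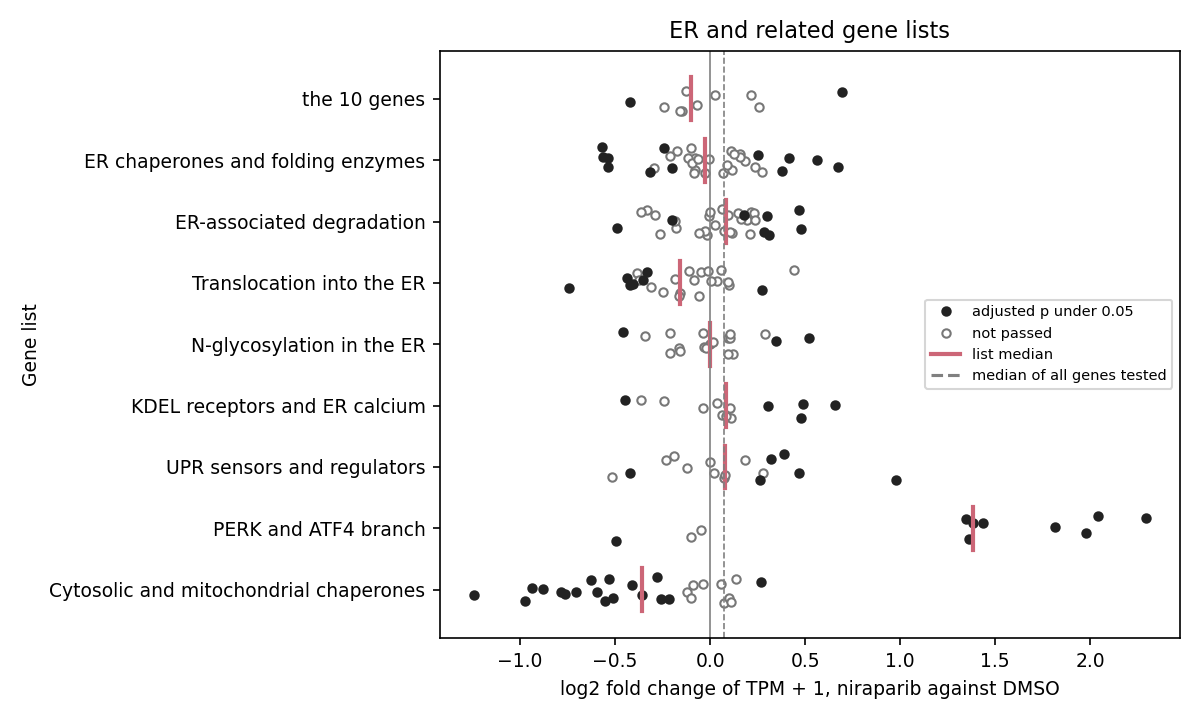
Log2 fold change of TPM + 1 (niraparib against DMSO) of every tested gene in the 10 genes, 5 ER lists, the sensors and regulators, the PERK and ATF4 arm and the chaperones of the cytosol and mitochondria; filled points passed limma at an adjusted p of 0.05, bars are list medians and the dashed line is the median of all genes tested. The median was 1.38 in the PERK and ATF4 arm, -0.36 in the cytosolic and mitochondrial chaperones and between -0.16 and 0.08 in the others.

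Most chaperones of the cytosol and mitochondria moved in the other direction from the ATF4 targets. Such chaperones answer to heat shock factors or to the mitochondrial stress response rather than to ATF6 and XBP1. Of 27 tested, 17 fell, 1 rose and 9 did not pass (median -0.36). That was 63.0% lower and 3.7% higher, against 11.7% and 20.8% of all genes tested. HSPA8, the constitutive cytosolic Hsp70, fell from 1232 and 1188 TPM to 701 and 700.2 TPM (log2 fold change -0.79, limma adjusted p = 0.00109). HSP90AA1, the inducible cytosolic Hsp90, fell from 806 and 802 TPM to 305 and 376 TPM (-1.24, 0.00267). HSPD1, the mitochondrial Hsp60, fell by 0.70 (0.00302) and AHSA1, an activator of Hsp90, by 0.63 (0.00251). These 4 calls held in all 15 alternatives. On the same list HSPA1A (-0.035), HSPA1B (0.071) and DNAJB1 (0.135) did not pass, and the gene that rose was BAG3 (0.269, limma adjusted p = 0.0363). HSPA1A, HSPA1B, DNAJB1 and BAG3 were named after their values were seen.

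Ratios of paired genes within a library do not depend on scaling between libraries, although they do depend on GC content. With 2 libraries against 2, the exact permutation test, two-sided, cannot give a p below 0.333, so none of the 12 ratios compared could pass, and adjustment over the 12 was not made for the same reason. HSPA5 stood at a log2 ratio to HSPA8 of -2.28 and -2.23 with DMSO and of -1.66 and -1.57 with niraparib. Both niraparib libraries were above both DMSO libraries, by 0.64 on the log2 scale (1.56-fold). HSP90B1 against HSP90AA1 was higher by 0.83 (1.77-fold) and HSP90B1 against HSP90AB1, the constitutive cytosolic Hsp90, lower by 0.20; the TPM of both ER forms were themselves lower in both niraparib libraries.

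DDIT3 against HSPA5 was -4.18 and -4.74 with DMSO and -1.91 and -1.94 with niraparib, a 5.82-fold difference. XBP1 against its activating nuclease gene ERN1 was 5.98 and 6.18 with DMSO and 5.01 and 5.30 with niraparib, 1.9-fold lower. The niraparib libraries were above the DMSO libraries in 5 of 12 pairs, below in 5 and overlapping in 2, CALR against CANX (0.01) and HERPUD1 against HERPUD2 (0.23). DNAJB9 against DNAJB11 was higher by 0.50 and EDEM1 against EDEM3 by 0.46. ATF6 against ATF6B, PDIA4 against PDIA3 and SDF2L1 against SDF2 were lower, with differences of -0.57, -0.20 and -0.34.

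**Figure D4:**
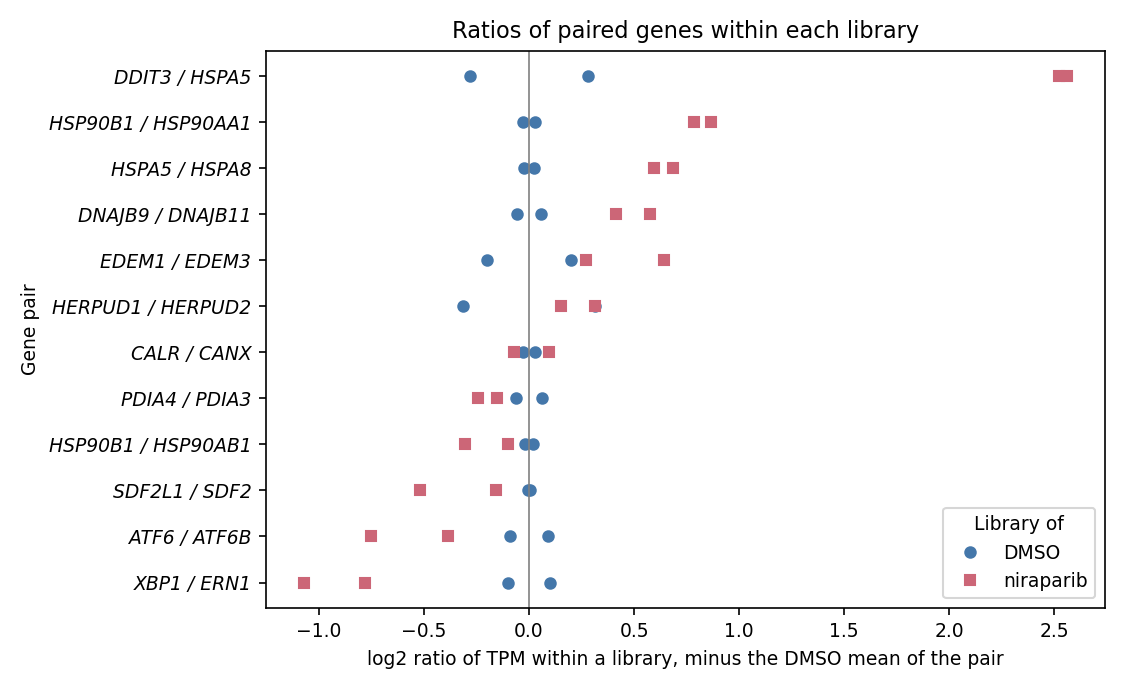
Log2 ratio of the TPM of 2 genes within each of the 4 libraries, shown as the difference from the DMSO mean of the pair (0 on the axis); each point is a library. DDIT3 against HSPA5 lies 2.54 above the DMSO mean on average, XBP1 against ERN1 -0.93 from it, and CALR against CANX overlaps.

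The genes that share ERSE with XBP1, HSP90B1, HSPA5 and CALR included calls in both directions. Of 25 genes with an exact ERSE, 16 were tested: 2 were called higher, 3 lower and 11 in neither direction, with a median log2 fold change of -0.05. The 2 higher were XBP1 and SYNPO, an actin-associated protein gene (1.35, limma adjusted p = 0.00438), and the 3 lower were HSP90B1, the disulfide isomerase gene PDIA6 (-0.20, 0.0297) and EIF2A (-0.66, 0.00313). Of 14 tested genes with ERSE-II, 4 were called higher (NUCB1, NAV2, RAD9A and GYS1), 1 lower (ZNF143) and 9 neither, with a median of -0.01; HERPUD1 and SDF2L1 were among the 9. SYNPO, PDIA6, EIF2A and the ERSE-II genes were named here after their values were seen. Among the 24 tested genes with either element outside the 10, 5 were higher and 3 lower, close to the 20.8% and 11.7% of all genes tested. ERSE occurred 52 to 34 bases before a start site of XBP1, whose TPM rose 1.63-fold. It occurred 66 to 48 bases before the start site of HSPA5, whose TPM did not pass the test.

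Among the genes whose pattern over the 4 libraries was most like that of HSPA5, by Euclidean distance of their deviations of log2(TPM + 1) from the gene mean among 7653 genes with an average of at least 10 TPM, were TBCB, CAPN2, RPS12 and ATP1B1, at distances of 0.0127 to 0.0174. With 4 libraries, such likeness amounts to a similar small decrease, with log2 fold changes of -0.14 to -0.16 against -0.15 for HSPA5.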

How the data were processed

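RNA-seq of Cal-62 cells was analysed in 4 libraries, 2 with DMSO and 2 with niraparib, prepared from total RNA with an mRNA-seq library kit. The deposited values are TPM, made by the authors; the file calls them counts, but they are not whole and sum to nearly the same total in each library. Trimming with Trim Galore and alignment with STAR to hg19 are described in the study's methods, whereas the processing notes name HISAT2, hg38 and mm10; the tool behind the TPM and its gene annotation are not given in the sources used here. The table held 16717 genes, 12 of them under repeated symbols.

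Genes with at least 1 TPM in at least 2 libraries were tested with limma 3.58.1 (R 4.3.3; trend and robust priors, two-sided) on log2(TPM + 1), a scale that understates changes of low genes, with Benjamini-Hochberg adjustment over 13377 genes and a threshold of 0.05. Nothing says that the replicates were separate cultures, so p-values measure only the spread between these libraries. The fit was tested on simulated data. Coordinates are from GENCODE release 44 lifted to GRCh37, and GC content from the longest transcript there (14652 symbols matched directly and 193 by synonym); promoters are from RefSeq. Within-library ratios were compared by an exact permutation test.

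The 10 genes and all lists were chosen with earlier results of these data known. The text names the 10 genes, both genes of each ratio, all tested sensors, regulators and genes of the PERK and ATF4 arm, the 4 genes of each other list with the smallest p, and genes most like HSPA5; some items are not reported here. Alternatives were other scalings, filters, pseudocounts and priors, the replicate number as a block, GC adjustment by loess (span 0.5), and the removal of each library. GC adjustment covered only genes with a matched GC content.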

Additional observations from a re-analysis of the deposited data

How the results depend on the processing

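Of the 10 genes, 1 was called higher and 1 lower. The number lower was 4 after median-of-ratios scaling, 4 after upper-quartile scaling, 0 without limma's trend and robust priors, 5 after GC adjustment, 4 after GC adjustment with the replicate block, 3 after a GC adjustment that kept library levels, which was chosen after seeing the data, and 0 to 1 when 1 library was left out (0 without DMSO replicate 1). The number higher was 2 after GC adjustment and 3 with levels kept. Over all genes, 2780 were higher and 1559 lower; the number higher was 1998 after median-of-ratios scaling (2233 lower), 1338 after GC adjustment (2129 lower), 1254 after GC adjustment with the replicate block and 1197 to 1616 with 1 library left out, and the number lower was 1017 without the priors and 627 to 1159 with 1 library left out. A fit that leaves 1 library in a group assumes that it varies like the other group. The median over all genes moved from 0.07 to -0.02 after median-of-ratios scaling and to -0.03 after GC adjustment, and changes relative to it shift by as much. Replicate numbers did not pair the libraries (correlation of same-numbered deviations -0.0148 over 13377 genes); with the replicate block the 10 genes gave 1 higher and 1 lower and all genes 2400 and 1339.

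Of 150 alternative log2 fold changes of the 10 genes, 121 kept direction and side of the threshold, 3 lost the call, 19 gained one and 7 turned in sign; of 869 for the 58 other named genes these were 724, 91, 9 and 45. The values that turned were as follows; the cause was not tested. After median-of-ratios scaling EDEM1 was -0.072, TMBIM6 -0.02, CREB3L2 -0.021, MBTPS2 -0.071, YY1 -0.094, SDF2 -0.005, PDIA3 -0.033 and HERPUD2 -0.067. After upper-quartile scaling EDEM1 was -0.044, MBTPS2 -0.045, YY1 -0.067, PDIA3 -0.003 and HERPUD2 -0.041. After GC adjustment, with or without the replicate block, EDEM1 was -0.002, P4HB -0.048, SSR4 -0.083, MOGS -0.072, TRAF2 -0.081, TMBIM6 -0.025, CREB3L2 -0.034, YY1 -0.092, PDIA3 -0.036, HERPUD2 -0.11 and CANX 0.032. With library levels kept ATF6 was 0.04, PPP1R15B 0.071, CANX 0.13, HERPUD2 -0.012 and DNAJB11 0.047. With 1 library left out, EDEM1 ran from -0.108 to 0.161, CREB3L2 from -0.003 to 0.154, MBTPS2 from -0.041 to 0.078, YY1 from -0.046 to 0.048, ATF4 from -0.259 to 0.059, PPP1R15B from -0.103 to 0.003, SDF2 from -0.004 to 0.194, CANX from -0.172 to 0.009 and HERPUD2 from -0.214 to 0.262, and the log2 ratios of CALR to CANX from -0.071 to 0.096 and of HERPUD1 to HERPUD2 from -0.08 to 0.547.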
